A study of Mus musculus with 4 samples.

Results

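Collagens and extracellular matrix genes were followed through the malignant cells and the host cells of mouse sarcomas. The set held 49 genes, listed by symbol, of 18220 genes listed in the malignant or the non-malignant table. All 49 were present in both tables. By role they comprise 7 fibrillar collagens, 10 genes of the basement membrane, 6 other collagens, 7 genes of elastic fibres and microfibrils, 4 cross-linking enzymes, 5 adhesive and matricellular glycoproteins, 4 proteoglycans, 5 genes of collagen folding and modification, and Fap, a cell-surface protease of fibroblasts. The tumors were allografts taken from the hind limb, labelled with the genotype KrasLSL-G12D/+;Trp53flox/flox and the background strain 129/SvJae in every sample. Host mice received intraperitoneal PBS as vehicle, or digoxin at 2 mg/kg made up in DMSO and diluted in PBS. DMSO is named for the digoxin group alone, so as described digoxin and DMSO cannot be told apart. Injections were 24 h apart, and tumors were collected after dose 4. Each group held 2 mice. Digoxin is a cardiac glycoside that blocks the sodium-potassium pump. The age of the mice, and whether the allografts came from a single tumor line, are not given in the sources used here. The 129/SvJae and genotype labels are shared by both groups and do not say whether they describe the tumor, the host or both.

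Fibrillar collagens are secreted as triple helices that assemble into the load-bearing fibres of connective tissue, while collagen IV, laminins, nidogens and perlecan form the thin sheet of basement membrane under endothelium and around muscle. Prolyl and lysyl hydroxylases and the chaperone encoded by Serpinh1 act on collagen chains inside the cell, and lysyl oxidases cross-link the fibres outside it. Sarcomas are tumors of mesenchymal lineage, so their malignant cells and the fibroblasts of the host can both make this matrix.

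Levels are mean CPM, the unique molecular identifiers (UMIs, which mark single RNA molecules) of a gene scaled to 1000000 UMIs of a cell, averaged over the cells of a mouse. Since the 3′ method counts a molecule once whatever its length, CPM can be set side by side between genes with no length factor, although capture can differ from gene to gene. The 4 mice gave 3976 to 6269 malignant cells and 3014 to 3344 non-malignant cells each, with median depths of 46799 to 57658 and 15837 to 16671 UMIs per cell. The type named Fibroblast held 31 to 78 cells per mouse and the type named Epithelial 80 to 98. Median depth of Fibroblast cells was 18866 UMIs in vehicle replicate 2 and 28822 to 36749 in the other mice. Trp53, which has conditional alleles in the labelled genotype, was 6.56 to 7.71 CPM in malignant cells and 63.8 to 75.5 in non-malignant cells. Non-malignant cells of vehicle replicate 2 had 6.09 CPM of Xist and 86.0 of Ddx3y, against 722 to 817 and 1.72 to 2.14 in the other mice. The host of that library thus differed in its sex-linked genes, with the pattern of a male where the other hosts had that of females. The labels do not give the sex of the hosts. With all mice compared, the vehicle group alone mixed both kinds of host, and the part of this in the differences was not tested. Any pair of libraries shared 14 to 25 cell barcodes.

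The deposited names were checked against markers. Fibroblast cells carried Pdgfra (327 to 411 CPM) and Dpt (215 to 409 CPM), which were also measured in malignant cells at 115 to 145 and 68.0 to 82.9 CPM. Cells named Epithelial had 822 to 883 CPM of Pecam1 and 859 to 971 of Cdh5, both endothelial genes, and 502 to 731 of the pericyte gene Rgs5, while the epithelial gene Epcam was 0 to 0.358. The 8 endothelial markers summed to 4620 to 5245 CPM there and the 6 pericyte markers to 722 to 1078. The deposited name is kept below, although the markers are those of endothelium and pericytes. Cells named Microglia had 2178 to 2592 CPM of Siglech, a gene of plasmacytoid dendritic cells, and 0 to 2.75 of the microglial gene Tmem119.

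Matrix RNA was richest in Fibroblast cells. The 49 genes together made up 7.93% to 9.24% of the UMIs of a Fibroblast cell, 1.41% to 1.84% of those of a malignant cell and 1.58% to 1.77% of those of an Epithelial cell. In macrophages the share was 0.163% to 0.196%. The highest level of a gene lay in Fibroblast cells for 38 of the 49 and in Epithelial cells for 11, among the 8 populations with at least 20 cells in every mouse. These levels are a description with no test, because the cell types were drawn from the same expression values. Malignant cells were the second highest for 34 genes. Malignant cells were 55.0% to 67.5% of all cells and were deeper, at medians of 46799 to 57658 UMIs against 15837 to 16671 in non-malignant cells. They held 91.1% to 96.5% of all matrix UMIs sequenced per mouse, a share that depends on cell number and depth as well as level. Over all genes, malignant cells gave 255961531 to 350781642 UMIs per mouse and non-malignant cells 52417178 to 59626065. Fibroblast cells were 0.334% to 1.03% of cells and held 1.26% to 5.70%.

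**Figure D1:**
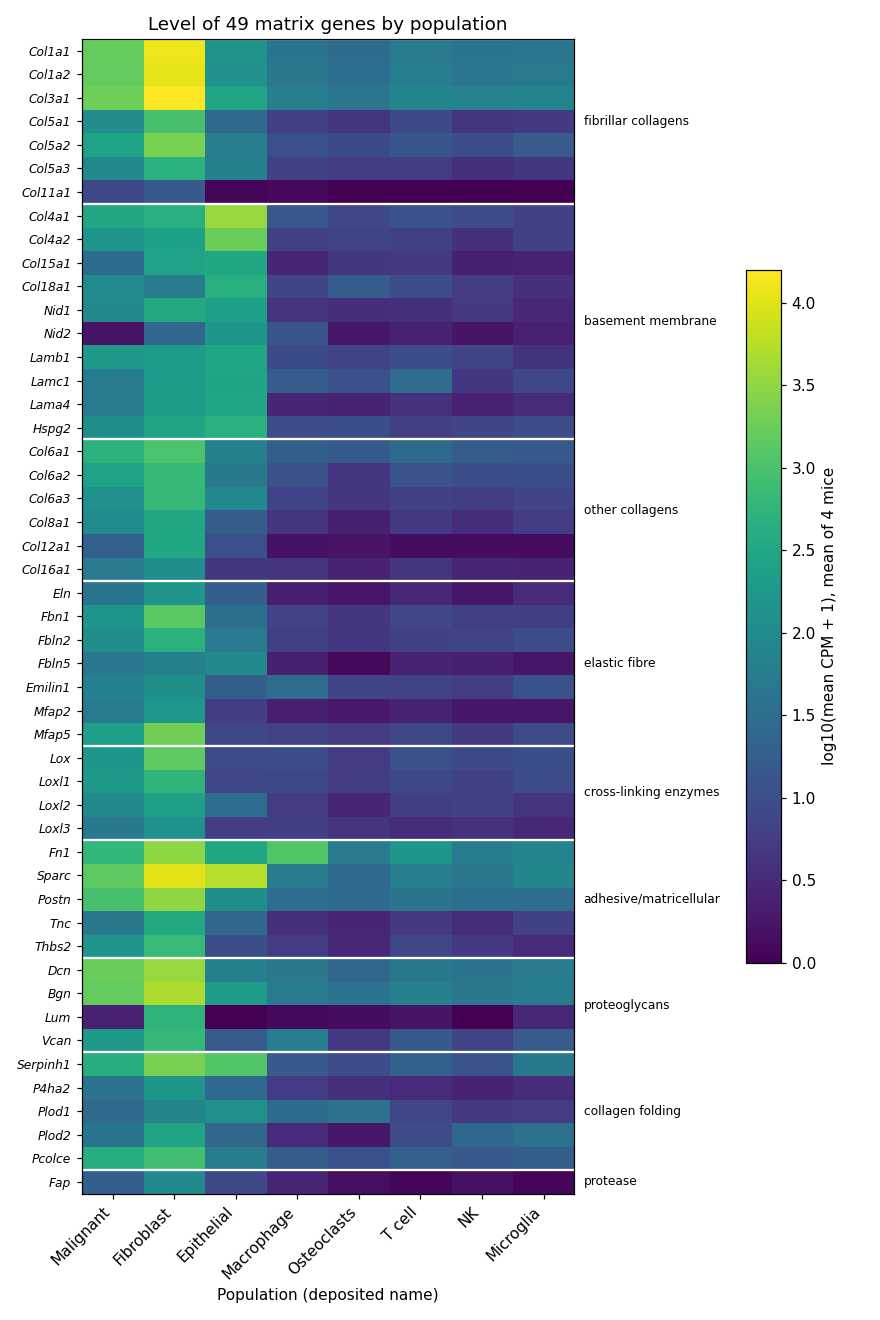
Colour gives log10(mean CPM + 1), averaged over the 4 mice, for each of the 49 genes (rows, grouped by role) in 8 populations (columns). The fibrillar collagens are brightest in Fibroblast cells, Col4a1 and Col4a2 in Epithelial cells, and Fn1 is the brightest gene of macrophages.

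**Figure D2:**
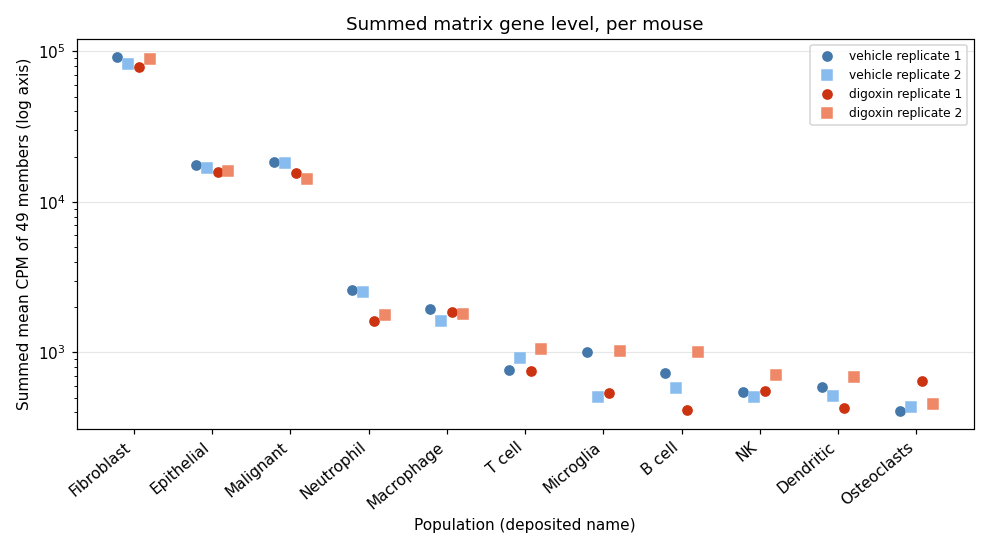
Points give the summed mean CPM of the 49 genes in each mouse (log axis) for 11 populations, with vehicle in blue and digoxin in red. Fibroblast cells lie between 79259 and 92436 CPM, and malignant cells between 14110 and 18421 CPM. Each digoxin point is under each vehicle point in malignant, Epithelial and Neutrophil cells, and above each in NK cells and Osteoclasts. The log2 difference was -0.30 in malignant, -0.11 in Epithelial, -0.59 in Neutrophil and 0.26 in NK cells, and 0.36 in Osteoclasts.

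Of the 7 fibrillar collagens, 6 were at least 2 times higher in Fibroblast than in malignant cells in every mouse, and Col11a1, with ratios of 0.725 to 3.24, was not. Col3a1, the chain of collagen III, had the highest level of any member, with 16969, 14242, 14763 and 17318 CPM in Fibroblast cells of vehicle replicates 1 and 2 and digoxin replicates 1 and 2. The same order of mice is used for all values that follow. Malignant cells had 2120, 2156, 1725 and 1584 CPM of Col3a1. Within a mouse the Fibroblast level was 6.61 to 10.9 times the malignant level. Col1a1 and Col1a2, the chains of collagen I, had ratios of 5.62 to 10.8 and 5.82 to 9.12. The ratio was lowest for Col18a1 (0.356 to 0.678), a basement membrane collagen that was higher in malignant cells. Of the 49 genes, 37 were at least 2 times higher in Fibroblast than in malignant cells in every mouse, where 7.88% of all genes compared were. None of the 49 was at least 2 times lower in every mouse, where 11.6% of all genes were.

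Lum and Nid2 had the largest ratios of Fibroblast to malignant level. Lum, a small proteoglycan that binds collagen fibrils, had 480, 844, 386 and 461 CPM in Fibroblast cells and 0.710, 3.57, 0.816 and 0.482 CPM in malignant cells. A Lum UMI was found in 75.5% to 85.9% of Fibroblast cells and in 1.04% to 2.44% of malignant cells. In T cells, which should lack the gene, it was found in 0% to 0.909% at a median depth of 7244 to 8232 UMIs. With cells thinned to 5000 UMIs, which left out 28 of 18963 malignant, 68 of 10363 macrophage and 75 of 579 T cells of lower depth and 0 Fibroblast cells, the shares were 55.6% to 74.2% in Fibroblast cells, 0.190% to 0.974% in malignant cells and 0% to 0.893% in T cells, so at equal depth the malignant share overlapped that in T cells. Nid2, a nidogen that links collagen IV to laminin, was 19.0 to 26.7 CPM in Fibroblast cells and 0.479 to 0.829 CPM in malignant cells, with 146 to 181 CPM in Epithelial cells. A Nid2 UMI was found in 34.7% to 46.7% of Fibroblast cells and 2.04% to 3.73% of malignant cells, and at 5000 UMIs in 12.2% to 16.1% and 0.176% to 0.422%, the latter within the 0% to 2.68% of T cells. Dcn, a proteoglycan related to Lum, was by contrast plentiful in both, at 2776 to 5352 CPM in Fibroblast and 1301 to 2191 CPM in malignant cells. The ratio of Dcn to Col1a1 UMIs was 0.187 to 0.458 in Fibroblast and 1.01 to 1.44 in malignant cells.

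Of the 10 basement membrane genes, 9 had their highest mean level in Epithelial cells. Nid1 was higher in Fibroblast cells, with a mean of 348 CPM against 236, and for Col15a1 the ranges of Epithelial and Fibroblast cells overlapped. Col4a1, a chain of collagen IV, was 3469, 3700, 3437 and 3556 CPM there, against 260 to 446 CPM in malignant cells and 355 to 535 CPM in Fibroblast cells. Col4a2, its partner chain, was 1766, 1956, 1776 and 1798 CPM in Epithelial cells. All 4 mice lay close together for both genes, and the groups overlapped. Sparc, which binds collagen IV, was the most abundant member there (4986 to 5848 CPM), and Serpinh1 (1035 to 1375), Hspg2 (422 to 532), Col18a1 (404 to 463) and Col15a1 (218 to 392) were also among the 8 highest. Of the 49 genes, 12 were at least 2 times higher in Epithelial than in malignant cells in every mouse, where 12.7% of all genes were. Of these 12, 9 belong to the basement membrane, and the others were Sparc, Serpinh1 and the lysyl hydroxylase gene Plod1. In the opposite direction 25 were at least 2 times lower in every mouse, where 13.4% of all genes were, and these include 6 fibrillar collagens and all 4 proteoglycans. For Lum, found in 0% of Epithelial cells, the malignant share overlapped that in T cells at equal depth, too low to measure a ratio.

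Col4a1 and Col4a2 lie head to head on chromosome 8 (mm10), Col4a1 at chr8:11198423-11312889 on the minus strand and Col4a2 at chr8:11312805-11449287 on the plus strand, and are known to share a promoter between them. Their RefSeq promoter windows of 300 bases overlap by 78 bases. The ratio of Col4a1 to Col4a2 UMIs was 2.11 to 2.26 in malignant, 1.82 to 2.05 in Epithelial and 1.60 to 2.098 in Fibroblast cells, and so it stayed within a narrow range while the Col4a1 level differed about as much as 3700 against 260 CPM. In malignant cells both genes were highest in vehicle replicate 2, at 446 CPM for Col4a1 and 208 for Col4a2, against 260 to 292 and 113 to 134 in the other mice.

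To ask whether digoxin changed matrix RNA within the malignant cells, the mice of the 2 groups were compared. No member passed the test. By limma on log2(mean CPM + 1), 0 of 49 had an adjusted p under 0.05 over all genes (0% of 17138 genes did), and edgeR called 0 members. At an unadjusted p under 0.05 there were 15 of 49 members, where 3.41% of all genes were. In both digoxin mice 21 of 49 were lower than in both vehicle mice, where 16.5% of all genes were, and 1 was higher, where 12.8% of all genes were. The median log2 difference over the 49 was -0.21, against -0.01 over all genes tested. DESeq2 on summed UMIs called 3 of 49 members lower, Fap, Postn and Col3a1, where it called 0.263% of all genes in either direction. Members share their mice and libraries, so these counts are not independent of each other. The list was also chosen with earlier results of these data known, so the counts are no independent check.

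In malignant cells, 6 of the 7 fibrillar collagens were lower in both digoxin mice and the seventh overlapped. Col1a1 had 1905, 1755, 1506 and 1335 CPM, with the vehicle mice highest. The difference was -0.37 on the log2 scale, with an SE of 0.0989 and a limma adjusted p of 1.00. Col1a2 had 1765, 1639, 1433 and 1365 CPM, and its difference was -0.28 on the log2 scale (SE 0.0846). For Col3a1, with the values given above, the log2 difference was -0.37 (SE 0.0865), with a limma adjusted p of 1.00 and a DESeq2 adjusted p of 0.0144. Col5a2, a collagen V chain that is built into collagen I fibrils, had 313, 291, 247 and 220 CPM, again without overlap. Col11a1, a minor fibrillar collagen, had 7.02, 10.4, 5.60 and 5.32 CPM, a log2 difference of -0.57 (SE 0.184), or -0.31 without vehicle replicate 2. Col5a1 had 131, 108, 113 and 98.6 CPM, and there the groups overlapped. The ratio of Col3a1 to Col1a1 UMIs stayed between 1.07 and 1.24 in the 4 mice.

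Of the 5 adhesive glycoproteins, 3 were lower in both digoxin mice in malignant cells. Postn, which encodes periostin, a matricellular protein that promotes collagen cross-linking, had 1310, 1008, 867 and 677 CPM in malignant cells. It differed by -0.58 on the log2 scale (SE 0.171), at a limma adjusted p of 1.00 and a DESeq2 adjusted p of 0.0441. Fn1, the gene of fibronectin, had 662, 698, 569 and 487 CPM, and Sparc had 1559, 1537, 1320 and 1343 CPM. In all 3 genes each digoxin value was under each vehicle value. Tnc and Thbs2 overlapped between the groups.

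Among the proteoglycans, Dcn had 1803, 2191, 1610 and 1301 CPM and Bgn had 1731, 1751, 1543 and 1285 CPM, both lower in both digoxin mice. Vcan, a large proteoglycan, had 161, 194, 179 and 176 CPM and overlapped. Fap had 21.1, 21.6, 14.6 and 14.3 CPM, and this pair of groups stood furthest apart for its spread. For Fap the difference was -0.53 on the log2 scale (SE 0.0827), at a limma adjusted p of 1.00, an edgeR adjusted p of 0.985 and a DESeq2 adjusted p of 0.00129. A Fap UMI was present in 26.2% to 36.4% of malignant cells, and with cells thinned to 5000 UMIs in 9.47% and 9.002% of vehicle and 6.50% and 5.77% of digoxin cells. In T cells the thinned share was 0% to 0.602%.

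Basement membrane genes of malignant cells were mixed. Col15a1, which joins basement membrane to the fibres beneath it, had 42.4, 32.7, 24.5 and 19.98 CPM. This was the lowest difference among members at 5 CPM or more, -0.73 on the log2 scale (SE 0.157), with a limma adjusted p of 1.00. Lamb1 (187, 192, 183 and 168 CPM) and Nid2 were also lower in both digoxin mice. The other 7 overlapped, among them Col4a1, Col4a2, Col18a1 and Hspg2. The groups also overlapped for all 4 lysyl oxidases and for 4 of 5 genes of collagen folding and modification. Serpinh1, the chaperone gene, had 493, 353, 401 and 425 CPM. Among other collagens, 3 chains of collagen VI and Col12a1 were lower in both digoxin mice, and Col16a1 (48.7, 50.01, 55.1 and 50.3 CPM) was the single member of the 49 that was higher in both. Of 7 genes of elastic fibres, Fbn1 (201, 158, 153 and 135 CPM) was lower in both.

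**Figure D3:**
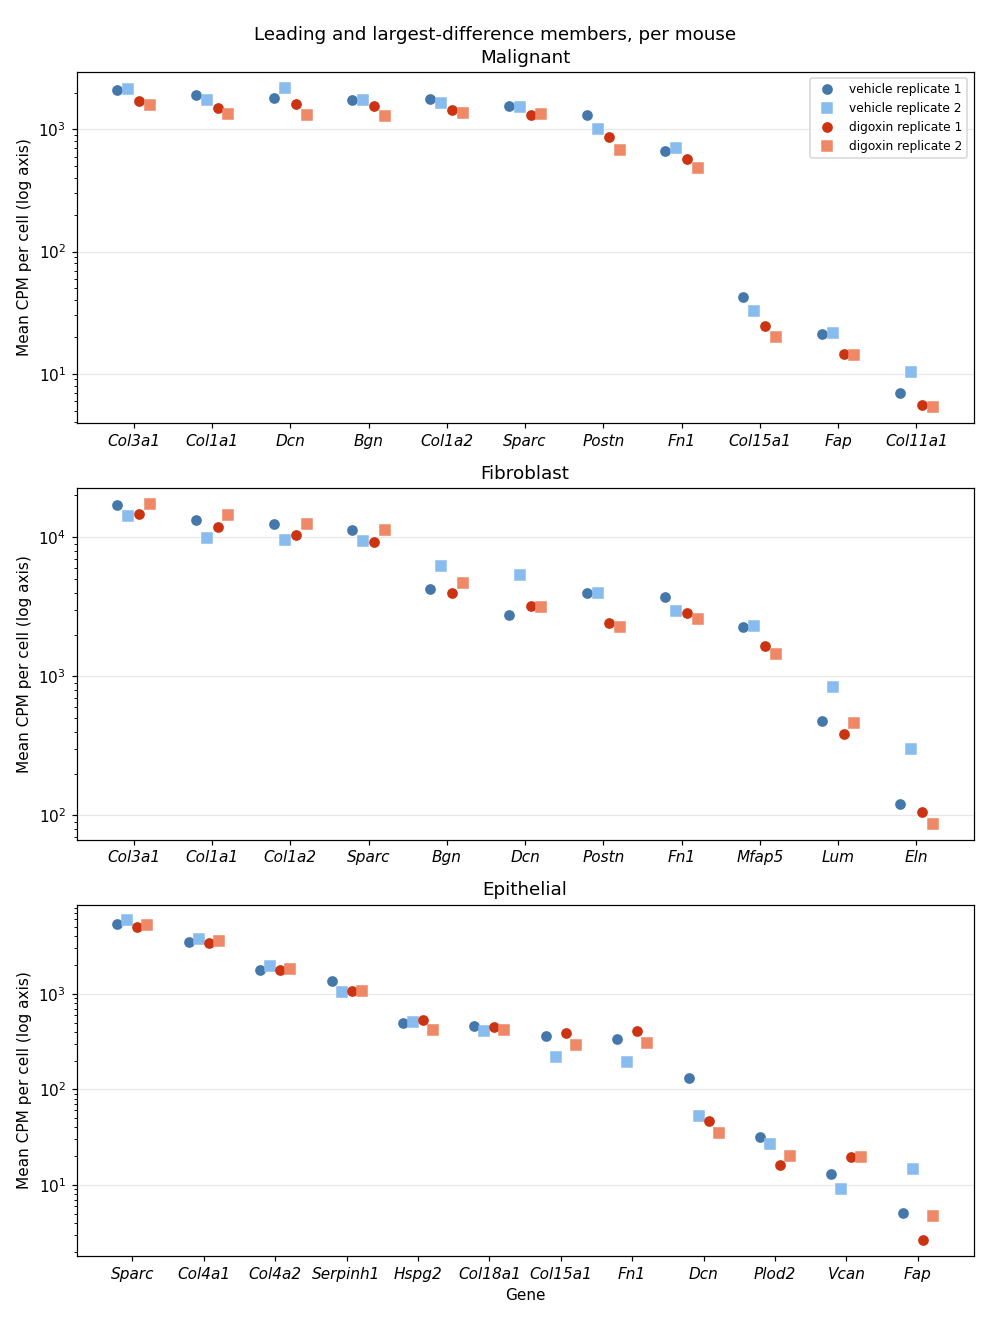
Points give the mean CPM per cell in each mouse (log axis) for the members of highest level and those of largest difference in malignant, Fibroblast and Epithelial cells. In malignant cells the 2 digoxin points lie below the 2 vehicle points for each of the 11 genes drawn, while in Fibroblast cells they do so for Postn, Fn1, Mfap5, Lum and Eln. Of these, Col15a1, Fap and Col11a1 in malignant cells and Mfap5, Lum and Eln in Fibroblast cells were drawn because their groups did not overlap. Over all members 21 of 49 were lower in both digoxin mice in malignant cells (16.5% of all genes) and 12 of 49 in Fibroblast cells (19.4% of all genes).

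Other measures moved with the groups in malignant cells. The 7 macrophage markers summed to 547 and 564 CPM with vehicle and 418 and 433 with digoxin in malignant cells, none of them at 0. Pericyte markers (103 and 104 against 97.6 and 82.4 CPM), osteoclast markers (113 and 157 against 108 and 94.0) and plasmacytoid dendritic cell markers (873 and 922 against 850 and 796) were also lower in both digoxin mice. The plasmacytoid sum was mostly Tcf4 (680, 830, 726 and 651 CPM), and Tcf4, Bst2 and Siglech each overlapped between the groups. Endothelial markers (18.2 and 18.7 against 21.1 and 39.6) and neutrophil markers (11.03 and 11.4 against 31.0 and 18.8) were higher in both. So were dendritic cell markers (1.32 and 1.52 against 1.93 and 1.95) and NK cell markers (5.01 and 3.09 against 5.05 and 5.36). Most of the endothelial rise was Pecam1 (3.10, 2.65, 5.42 and 23.9 CPM), while Egfl7 overlapped (12.7, 11.5, 11.2 and 11.7 CPM). The median mitochondrial share of UMIs was 5.80% and 5.93% with vehicle and 5.58% and 5.19% with digoxin. The share of malignant cells marked as doublets was 10.1% and 7.62% with vehicle and 6.20% and 5.89% with digoxin. The 8 fibroblast markers overlapped, at 1203, 1093, 1165 and 991 CPM. Without the cells marked as doublets the summed level of the 49 genes differed by -0.32 on the log2 scale, against -0.30 with them, and without cells with a Lum UMI, an alternative chosen after seeing the data, it differed by -0.28. The part of these markers in the result was not tested. Leaving out each mouse in turn gave -0.37 to -0.23.

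For 4 members that were lower in both digoxin mice, the sequence before the transcript start is printed here, so that windows of genes with the same order of groups can be set side by side. None of the 4 passed the test by limma. The windows are the 250 bases upstream of the start in RefSeq (GRCm38.p6, the build named mm10), read on the plus strand. The Col15a1 window belongs to a transcript start 357 bases after the first base of the gene as RefSeq lists it, and so lies inside the gene, while the other windows end just before that base of their genes. They lie at chr6:4505368-4505617 for Col1a2, chr1:45311288-45311537 for Col3a1, chr4:47207762-47208011 for Col15a1 and chr3:54359017-54359266 for Postn. Capitals mark CCAAT or its reverse ATTGG, the letters of the CCAAT box, and TATAAA or its reverse TTTATA, the letters of the TATA box.
Col1a2: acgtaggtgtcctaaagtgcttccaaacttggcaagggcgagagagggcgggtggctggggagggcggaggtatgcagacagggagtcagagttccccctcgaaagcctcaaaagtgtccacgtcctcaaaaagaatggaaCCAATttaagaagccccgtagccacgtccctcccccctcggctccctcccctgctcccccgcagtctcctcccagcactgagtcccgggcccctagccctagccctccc
Col3a1: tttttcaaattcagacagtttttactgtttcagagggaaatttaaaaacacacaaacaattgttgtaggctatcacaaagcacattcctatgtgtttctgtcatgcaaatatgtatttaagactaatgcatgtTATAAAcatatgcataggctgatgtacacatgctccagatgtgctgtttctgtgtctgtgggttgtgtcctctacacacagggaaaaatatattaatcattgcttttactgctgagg
Col15a1: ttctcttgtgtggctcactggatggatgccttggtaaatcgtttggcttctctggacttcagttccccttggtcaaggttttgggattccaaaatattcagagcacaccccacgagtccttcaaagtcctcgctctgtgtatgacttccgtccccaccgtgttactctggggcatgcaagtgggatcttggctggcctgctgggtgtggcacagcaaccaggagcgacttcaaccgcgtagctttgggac
Postn: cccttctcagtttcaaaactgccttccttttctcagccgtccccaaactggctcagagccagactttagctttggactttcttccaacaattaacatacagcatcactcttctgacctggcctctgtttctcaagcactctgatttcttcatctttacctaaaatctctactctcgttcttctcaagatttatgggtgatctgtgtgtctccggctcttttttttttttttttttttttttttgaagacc

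The printed windows did not share these letters. CCAAT stood 109 bases before the start of Col1a2 and TATAAA 117 bases before that of Col3a1, and the windows of Col15a1 and Postn held neither. Sequences were found for 32 of the 49 members, in 38 windows. CCAAT on either strand was in 34.2% of member windows and in 33.8% of all 32851 windows, and TATAAA on either strand was in 15.8% and 12.4%. A match is a description of the letters and not of a bound site.

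In Fibroblast cells the collagens did not follow the order seen in malignant cells. By limma 0 of 49 members had an adjusted p under 0.05, where 0% of 9292 genes did, and edgeR and DESeq2 called 0 members. At an unadjusted p under 0.05 there were 3 members, where 2.97% of all genes were. Both digoxin mice were lower than both vehicle mice for 12 of 49, where 19.4% of all genes were, and higher for 2, where 10.1% of all genes were. The median log2 difference was -0.01 over the 49 and -0.04 over all genes. All 7 fibrillar collagens overlapped between the groups. Col1a1 had 13222, 9855, 11832.5 and 14430 CPM, a log2 difference of 0.19 with a 95% interval of -0.32 to 0.71. Between the mice with the lowest and the highest level lay vehicle replicate 1 and digoxin replicate 1. Without vehicle replicate 2 the difference was -0.02.

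Postn was the Fibroblast member whose groups stood furthest apart for its spread. It had 3968, 3967, 2402 and 2263 CPM, so that each digoxin mouse was lower than each vehicle mouse, as in malignant cells. Its difference was -0.77 on the log2 scale (SE 0.179) with a limma adjusted p of 0.999, and the summed UMIs gave adjusted p of 1.00 by both edgeR and DESeq2. The difference was -0.77 without vehicle replicate 2 and -0.77 without vehicle replicate 1. In the latter fit the lone vehicle mouse was the one whose host differed in its sex-linked genes. A Fibroblast cell had a Postn UMI in at least 97.8% of cases in every mouse.

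Of the 12 members lower in both digoxin mice in Fibroblast cells, a count near the share over all genes, 4 are genes of elastic fibres and microfibrils. Mfap5, which encodes a microfibril glycoprotein, had 2271, 2306, 1643 and 1441 CPM, a difference of -0.57 on the log2 scale (SE 0.184) with a limma adjusted p of 0.999. Eln, the gene of elastin, had 120, 301, 106 and 87.4 CPM, and the log2 difference of -0.98 (SE 0.393) became -0.32 without vehicle replicate 2 and -1.64 without vehicle replicate 1. Fbn1, the fibrillin gene, had 1458, 1530, 1235 and 1178 CPM, and Fbln2 was lower in both as well. Of the proteoglycans, Lum was lower in both digoxin mice, with a log2 difference of -0.59 (SE 0.280) that became -0.19 without vehicle replicate 2 and -0.999 without vehicle replicate 1, and so was Vcan, with 812, 583, 565 and 529 CPM. Loxl1, a lysyl oxidase needed for elastic fibres, had 609, 593, 482 and 473 CPM, while Lox, Loxl2 and Loxl3 overlapped. Col8a1, Fn1, Lamc1 and Hspg2 complete the 12. Col18a1 (49.5, 45.1, 75.4 and 56.8 CPM) and Col12a1 were higher in both digoxin mice.

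The Fibroblast values rest on few cells and lean on the vehicle mice. Without vehicle replicate 1, limma called 10 members, of which Postn, Eln, Mfap5, Lum, Dcn and Bgn were lower with digoxin and Col1a1, Tnc, Serpinh1 and Plod2 higher, where 4.69% of all genes were called. The lone vehicle mouse of that fit, with 31 cells, was the one whose host differed in its sex-linked genes. Xist was 0 CPM in its Fibroblast cells, against 774 and 658 CPM in the digoxin mice, so host and treatment cannot be told apart. That fit also assumes that this mouse varies like the digoxin mice. Without vehicle replicate 2 it called Postn alone among members, where 0.182% of all genes were called. The 7 macrophage markers summed to 395 and 128 CPM in Fibroblast cells with vehicle and 628 and 572 with digoxin. Neutrophil markers there (2.87 and 0 against 21.6 and 4.93 CPM) were also higher in both digoxin mice. T cell markers (5.49 and 7.86 against 3.22 and 3.62 CPM) and the median mitochondrial share (3.80% and 3.99% against 3.75% and 3.35%) were lower. Their part in the differences was not tested. Without the Fibroblast cells that held a UMI of the leukocyte gene Ptprc, limma called 0 members.

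**Figure D4:**
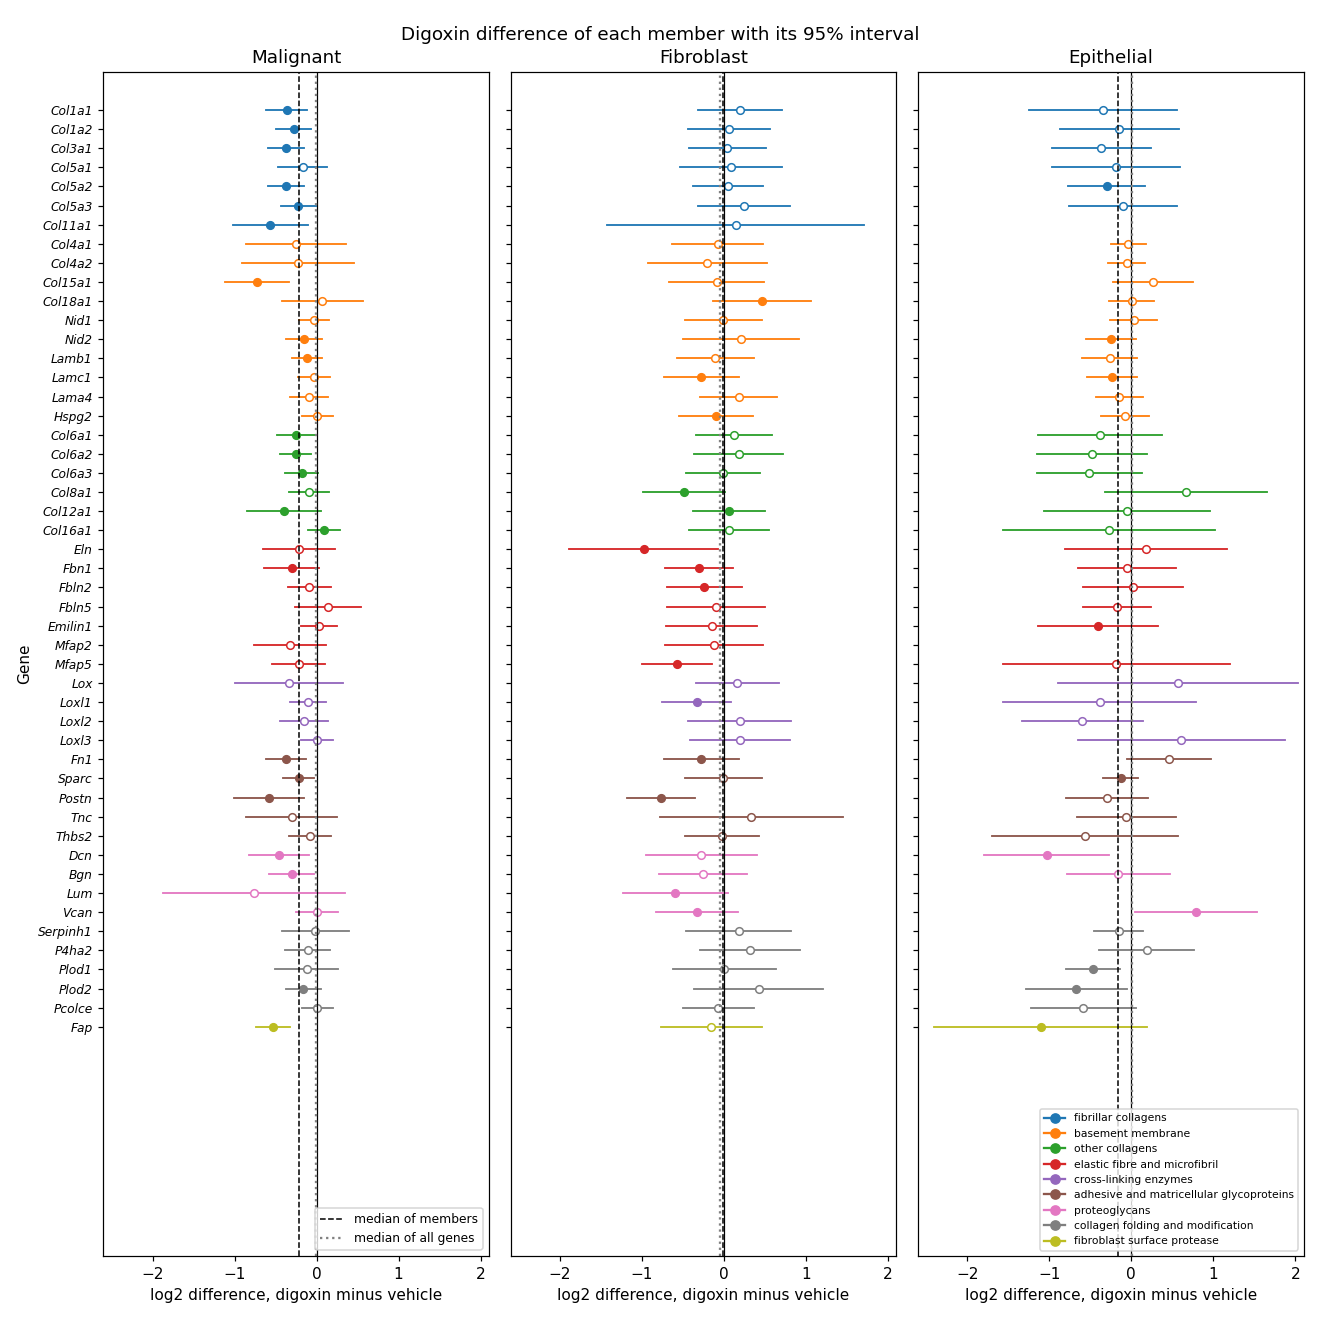
Points give the log2 difference between digoxin and vehicle of each member, with its 95% interval from limma, in malignant, Fibroblast and Epithelial cells. Filled points mark genes whose groups do not overlap, and dashed and dotted lines mark the medians of the members and of all genes (-0.21 and -0.01 in malignant cells).

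Whether the difference of a member was itself unlike in Fibroblast and malignant cells was tested with an interaction term, in a fit that took each mouse as a block. By limma 0 of 49 members had an adjusted p under 0.05, where 0% of 9280 genes did, and 7 had an unadjusted p under 0.05, where 3.83% of all genes did. These 7 were Col1a1, Col3a1, Col5a2, Col5a3, Col15a1 and Lox, with higher values of the difference in Fibroblast cells, and Eln, with a lower value. For Col1a1 the Fibroblast difference exceeded the malignant difference by 0.56 on the log2 scale (95% interval 0.15 to 0.98, limma adjusted p 0.998). For Eln it was -0.77 (95% interval -1.41 to -0.12). Without vehicle replicate 1 the test called 7 members, where 3.28% of all genes were called, and without any other mouse 0. With vehicle replicate 1 left out, the lone vehicle host was the one that differed in its sex-linked genes. Between Epithelial and malignant cells 0 of 46 members passed, where 0.176% of 10216 genes did, and 5 had an unadjusted p under 0.05, where 5.71% of all genes did.

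In Epithelial cells, 0 of 46 members tested passed by limma, where 0.467% of 10272 genes did, and edgeR and DESeq2 called 0 members. Lum, Col11a1 and Mfap2 were too low to be tested, with Lum at 0 UMIs in all 4 mice. At an unadjusted p under 0.05 there were 4 members, where 5.77% of all genes were. Both digoxin mice were lower for 9 of 46, where 16.3% of all genes were, and higher for 1, where 17.8% of all genes were. The median log2 difference was -0.17 over the 46 and 0.00305 over all genes. Collagen IV differed little. The log2 difference of Col4a1 was -0.04 (95% interval -0.25 to 0.18), and that of Col4a2 was -0.06 (95% interval -0.28 to 0.17). Both changed sign on summed UMIs, at 0.07 and 0.02. The 4 mast cell markers summed to 59.4 and 183 CPM in Epithelial cells with vehicle and 3199 and 3900 with digoxin, and the 7 macrophage markers to 373 and 759 with vehicle and 924 and 1084 with digoxin. The 6 pericyte markers summed to 1078 and 854 CPM with vehicle and 722 and 849 with digoxin, and their part in the differences was not tested. At least 3 mast cell markers were present in 0 and 1 Epithelial cells with vehicle and 5 and 6 with digoxin. Without those cells limma called 0 members. Sparc had 5328, 5848, 4986 and 5216 CPM, a difference of -0.13 (SE 0.0983), or -0.20 without vehicle replicate 1, -0.063 without vehicle replicate 2 and -0.047 without the cells with mast cell markers.

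The members with larger differences in Epithelial cells were of low level. Dcn had 130, 53.1, 46.1 and 35.03 CPM, and vehicle replicate 1 alone stood far above the other mice. The difference was -1.03 on the log2 scale (SE 0.345), and limma gave an adjusted p of 0.529. It became -0.39 without vehicle replicate 1, -1.67 without vehicle replicate 2 and -0.29 without the cells marked as doublets. Plod2, a lysyl hydroxylase gene, had 31.9, 26.6, 16.2 and 19.9 CPM, a difference of -0.67 (SE 0.276), from 39 to 55 UMIs per mouse, or -0.29 on summed UMIs. Plod1, its relative, had 141, 150, 109 and 101 CPM and did not overlap either. Fap had 5.06, 14.8, 2.65 and 4.67 CPM, from 2 to 21 UMIs per mouse, so its difference of -1.10 (SE 0.585) rests on few molecules. It was -0.41 without vehicle replicate 2 and -1.79 without vehicle replicate 1. Vcan had 13.1, 9.12, 19.5 and 19.6 CPM, the single member higher in both digoxin mice, with a difference of 0.78 (SE 0.336, limma adjusted p 0.842). The Vcan difference was 0.24 on summed UMIs, 0.47 without the cells with mast cell markers and 0.19 without cells with a Ptprc UMI. Without vehicle replicate 2 limma called 9 members in Epithelial cells, where 2.30% of all genes were called, all lower with digoxin: Col1a1, Col3a1, Col6a1, Col6a2, Postn, Dcn, Bgn, Pcolce and Serpinh1. Without vehicle replicate 1 it called 2 others, Fn1 and Col15a1, both higher, where 3.20% of all genes were called. Both fits assume that the lone vehicle mouse varies like the digoxin mice. With vehicle replicate 1 left out, the lone vehicle host was the one that differed in its sex-linked genes.

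In macrophages, the most numerous host cells, Fn1 was the member of highest level. Its mean was still higher in Fibroblast cells, at 3037 CPM against 1129.5 in macrophages. Fn1 had 1280, 977, 1269 and 992 CPM in macrophages, above the malignant level in every mouse. Macrophages held 15.2% to 28.6% of all Fn1 UMIs of a tumor, against 1.34% to 2.79% of the UMIs of all 49 genes. The ratio of Fn1 to Col1a1 UMIs was 18.1 to 40.1 in macrophages and 0.425 to 0.538 in malignant cells. Of the 49 genes, 7 were at least 2 times higher in macrophages than in T cells in every mouse, where 11.8% of all genes were. They were Fn1, Vcan, Emilin1, Plod1 and Nid2, and Fap and Col11a1, which had 0 to 1 UMIs per mouse in T cells, too few to measure a ratio. Plod2 was at least 2 times lower in every mouse, where 7.31% of all genes were. Nid2 in macrophages was 9.35 to 17.2 CPM. Macrophages held 37.8% to 55.2% of all Nid2 UMIs. Col11a1, at 0.118 to 0.360 CPM in macrophages, came from 5 to 14 UMIs per mouse.

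The collagens of macrophages and lymphocytes were close to each other. Col3a1 was 50.4 to 65.1 CPM in macrophages and 73.4 to 87.8 CPM in T cells. A Col3a1 UMI was in 22.2% to 26.8% of macrophages and 28.0% to 32.1% of T cells at 5000 UMIs per cell, against 82.2% to 88.04% of malignant cells. The ratio of Dcn to Col1a1 was 0.865 to 1.40 in macrophages and 0.758 to 1.18 in T cells, near the 1.01 to 1.44 of malignant cells and outside the 0.187 to 0.458 of Fibroblast cells. The macrophage shares of Col3a1 lay below those of T cells, which should lack the gene, so they are not read as expression. RNA from outside the cells was not measured directly. Ddx3y was 43.1 to 49.3 CPM in malignant cells of every mouse. It was 1.72 to 2.14 CPM in non-malignant cells of the mice other than vehicle replicate 2. Xist was 722 to 817 CPM in non-malignant cells of those mice and 15.3 to 16.9 in their malignant cells. In vehicle replicate 2 malignant cells had 0.462 CPM of Xist. Whether RNA from other cells gave the collagen values was not tested.

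Digoxin was compared with vehicle within macrophages, where 0 of 49 members passed by limma (0% of 13734 genes did) and edgeR and DESeq2 called 0. An unadjusted p under 0.05 was found for 1 member, where 4.04% of all genes had it. Both digoxin mice were lower for 4 of 49, where 17.3% of all genes were, and higher for 3, where 13.6% of all genes were. The median log2 difference was 0.00591 over the 49 and -0.01 over all genes. The member with the low p was Vcan, with 47.5, 19.7, 74.3 and 100.5 CPM. Both digoxin mice were highest, and the vehicle mice differed by over 2 times from each other. The difference was 1.46 on the log2 scale (SE 0.375), and the adjusted p by limma was 1.00. With cells thinned to 5000 UMIs, 13.8% and 6.26% of vehicle and 16.5% and 19.8% of digoxin macrophages had a Vcan UMI. Without vehicle replicate 1 the difference was 2.08 and the limma adjusted p 0.0130, in a fit that called 0.931% of all genes, while without vehicle replicate 2 it was 0.85. Neutrophil markers in macrophages (56.6 and 44.8 against 87.6 and 64.1 CPM) were also higher in both digoxin mice. Pericyte markers (10.3 and 12.8 against 7.54 and 9.95 CPM) and B cell markers (5.17 and 4.99 against 4.68 and 3.89 CPM) were lower in both. The median mitochondrial share was 5.20% and 6.44% with vehicle and 4.74% and 4.53% with digoxin. The part of these in the Vcan difference was not tested. Fn1 did not separate the groups in macrophages, at a log2 difference of 0.00591 (SE 0.178).

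**Figure D5:**
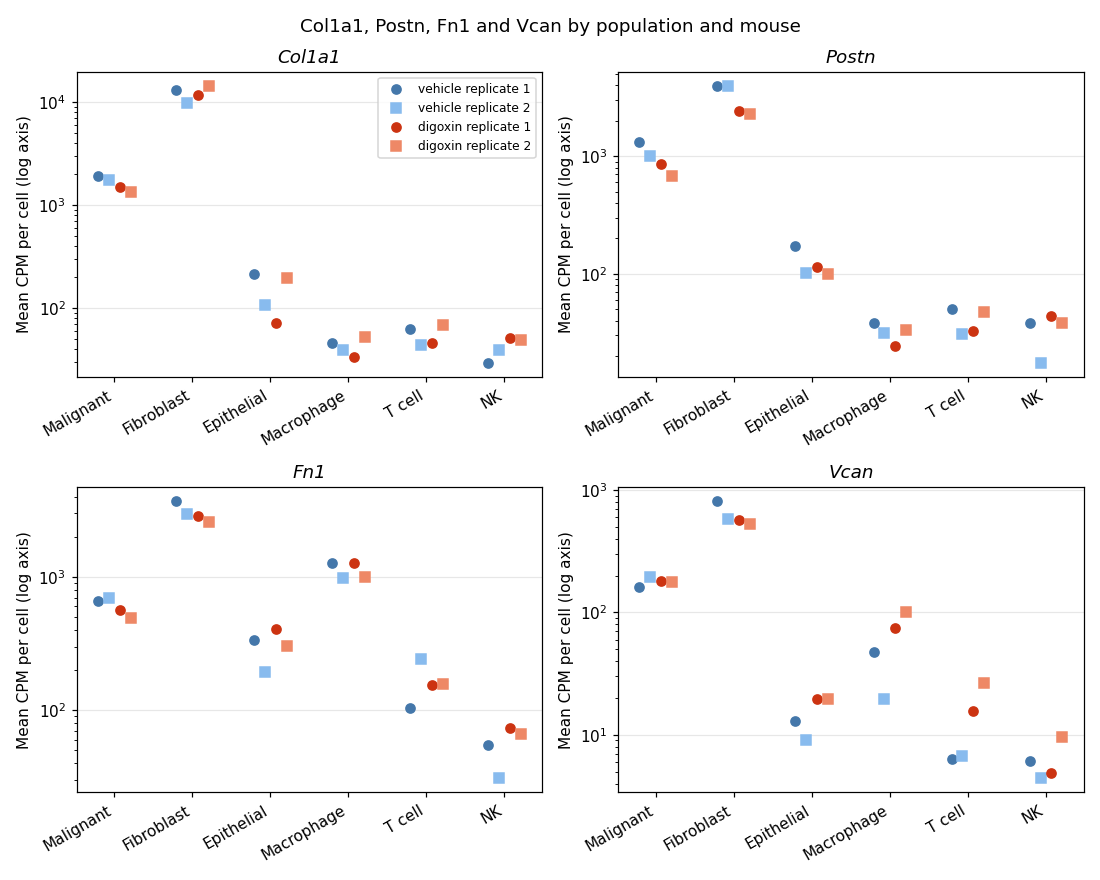
Points give the mean CPM per cell of Col1a1, Postn, Fn1 and Vcan in each mouse (log axis) for 6 populations. Col1a1 and Postn are highest in Fibroblast cells, Fn1 is higher in macrophages than in malignant cells, and Vcan is higher in both digoxin mice in macrophages (74.3 and 100.5 CPM) and T cells (15.6 and 26.6 CPM).

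Over all non-malignant cells, where the mix of types enters the mean, 0 of 49 members passed by limma (0% of 14879 genes did) and edgeR and DESeq2 called 0. At an unadjusted p under 0.05 there were 5 members, where 3.90% of all genes were. Lower values in both digoxin mice were found for 12 of 49, where 20.6% of all genes had them, and higher values for 1, where 12.4% did. That gene was Vcan, with 61.1, 24.2, 71.5 and 96.1 CPM and a log2 difference of 1.09 (SE 0.423), which became 0.44 without vehicle replicate 2 and 1.74 without vehicle replicate 1, and which was 0.589 by edgeR and 0.591 by DESeq2. Postn (144, 73.1, 59.9 and 69.6 CPM), Mfap5 (66.1, 29.7, 26.5 and 28.4 CPM) and Lum (12.7, 8.95, 5.26 and 7.23 CPM) were lower in both. Without vehicle replicate 1 the difference was -0.18 for Postn and -0.11 for Mfap5, and without vehicle replicate 2 it was -1.14 and -1.24. Fibroblast cells numbered 78, 31, 45 and 49 in the 4 mice. Vehicle replicate 1, with the most of them, had the highest summed level (4513 CPM against 2831 to 3409). Within Fibroblast cells Postn, Mfap5 and Lum were also lower in both digoxin mice.

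In the smaller leukocyte types 11 to 25 of the 49 members were high enough to test, and 0 passed by limma in T cells (23 tested, 0% of 8930 genes passed), NK cells (25 tested, 0.0765% of 9147 genes), Osteoclasts (16 tested, 0.0128% of 7803 genes) and Microglia (11 tested, 0% of 5818 genes). edgeR and DESeq2 also called 0 members there. An unadjusted p under 0.05 was found for 1, 3, 1 and 0 members, where 4.28%, 6.28%, 6.38% and 4.78% of all genes had it. Vcan in T cells had 6.39, 6.76, 15.6 and 26.6 CPM, and the difference of 1.498 on the log2 scale (SE 0.389) had a limma adjusted p of 0.898, from 10 to 42 UMIs per mouse. As in macrophages, both digoxin mice were higher. In the same cells pericyte markers (5.53 and 9.69 against 10.2 and 13.7 CPM) were also higher in both. Epithelial markers (54.8 and 64.6 against 42.2 and 48.0 CPM) were lower in both, and their part in the Vcan difference was not tested. Serpinh1 in T cells had 25.2, 22.6, 8.02 and 19.4 CPM, and Col6a2 had 10.2, 7.47, 14.1 and 12.5 CPM. Of the 25 members tested in NK cells, 7 were higher in both digoxin mice, where 19.1% of all genes were, and 2, Col5a2 and Emilin1, were lower, where 16.9% of all genes were. In NK cells Fn1 had 54.6, 30.8, 73.0 and 66.3 CPM, Col1a1 29.0, 39.1, 50.3 and 48.4 CPM, and Pcolce 7.44, 12.8, 19.3 and 17.0 CPM, all among the 7, with Fbn1, Lox, Lamb1 and Plod1 at lower levels. No background share was computed for collagens in NK cells, so these values are not read as expression. Macrophage markers in NK cells (535 and 557 against 620 and 978 CPM) were also higher in both digoxin mice. So were pericyte markers (5.02 and 4.35 against 6.02 and 9.79 CPM) and NK cell markers (8914 and 7003 against 9060 and 9011 CPM). Their part in the differences was not tested. In Osteoclasts Postn had 24.0, 19.6, 40.8 and 30.4 CPM and Col6a1 10.2, 10.6, 21.3 and 15.2 CPM, higher in both digoxin mice. The osteoclast genes Acp5 (11079, 15970, 9538 and 8937 CPM) and Ctsk (9325, 11208, 7144 and 9075 CPM) were lower in both there, while Mmp9, Atp6v0d2 and Ocstamp overlapped. Their median mitochondrial share was 9.48% and 10.8% with vehicle and 7.86% and 7.64% with digoxin. The part of these measures was not tested. In Microglia, Bgn had 83.9, 55.1, 37.8 and 54.8 CPM, lower in both digoxin mice. No background share was computed for Osteoclasts or Microglia either.

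Other genes of the pathway, from lists chosen apart from the members, did not pass the test in malignant cells. Among 30 of 35 further collagens and laminins that were tested, limma called 0, and the median log2 difference was -0.02. Col7a1, the collagen of anchoring fibrils, had the lowest difference among those at 5 CPM or more, with 8.64, 10.9, 8.15 and 6.75 CPM. Lamb2, a laminin chain, had the highest, 0.02. Of 24 of 25 further genes of collagen folding, modification and export, limma called 0, with a median of -0.06. Bmp1, a protease that trims procollagen, had 129, 155, 130 and 117 CPM, and Pcolce2, an enhancer of that step, was at the other end with a difference of 0.14. Of 26 matrix receptors limma called 0, and the median was 0.04. Itgb5, an integrin chain, had 140, 130, 117 and 106 CPM, and Itga7, a laminin-binding integrin chain, had 4.27, 4.33, 5.04 and 6.76 CPM.

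In Epithelial cells 0 genes of the 3 lists passed by limma. The matrix receptor Cd44, which binds hyaluronan, had 26.1, 29.1, 57.3 and 63.9 CPM, a difference of 1.11 on the log2 scale (SE 0.213) at a limma adjusted p of 0.0610, the nearest of any matrix gene to the threshold in that type. Mast cell and macrophage markers moved with it, at the values given above for Epithelial cells. The Cd44 difference was 1.04 without the cells with mast cell markers (limma adjusted p 0.231) and 0.70 without cells with a Ptprc UMI (limma adjusted p 0.882). Over all alternatives the adjusted p of Cd44 ran from 0.00275, by limma without vehicle replicate 2, to 0.999, by DESeq2. In Fibroblast cells 0 of 51 genes of the 3 lists passed. Their medians were -0.07 for collagens and laminins, -0.01 for folding and export and -0.03 for receptors. In macrophages P4hb, a subunit of prolyl hydroxylase, had 248, 205, 276 and 271 CPM, a difference of 0.28 on the log2 scale (SE 0.122) at a limma adjusted p of 1.00.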

How the data were processed

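Single-cell libraries of 4 tumors, 2 per group, were made in droplets with a 3′ kit of version 3, after dissociation with collagenase IV, dispase and trypsin, per the labels' protocols. Per the submitters' processing notes, Cell Ranger 3.0.2, Seurat 3.0.2 and the mm10 build were used. How malignant cells were told from host cells, the annotation and the cell filter are not given in the sources used here. The deposited expression values, although named counts, are the natural log of 1 plus UMIs per 10000 UMIs of a cell. The authors also deposited the UMI count of each cell and the cell types. With that count 100% of values came out as whole UMIs within 0.01, in 18963 malignant and 12648 non-malignant cells. A vehicle library numbered 3 in the cell names is assigned by the deposited cell metadata to vehicle replicate 2. Columns of no sample numbered 0.

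Each cell was scaled to CPM, averaged per mouse and population, and log2(mean CPM + 1) was fitted with limma 3.58.1 with a variance trend, over genes kept by filterByExpr, with Benjamini-Hochberg adjustment over all genes tested at 0.05. Fold changes on this scale understate the change of low genes. Types with at least 20 cells in every mouse were fitted. edgeR 4.0.16 and DESeq2 1.42.0 on recovered UMIs, pseudocounts of 0.1 and 5 CPM, no filter, TMM scaling, a replicate block, leaving out each mouse, and leaving out doublets, cells over 25% mitochondrial UMIs, cells with a Ptprc UMI or cells with mast cell markers were alternatives. Scrublet in scanpy 1.11.5, at an expected share of 0.06, marked 1531 of 31611 cells (4.84%), which were kept. Named genes were members past the threshold, members without overlap between groups that differed by at least 0.5 (log2) at 5 CPM or more, and the 8 members of highest level (6 in minor types). Cd44 and P4hb are the extremes of their lists under the same rule, and other members named were chosen after their values were seen. The scripts were tested on simulated data. The members and lists were chosen with earlier results of these data known. Intervals cover the spread between 4 mice only, with a variance that limma moderates over all genes tested. UMI shares are values per mouse with no error computed.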

Additional observations from a re-analysis of the deposited data

How the results depend on the processing

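Leaving out single mice changed most counts of members called by limma, which were 0 with all mice. The counts ranged from 0 to 10 in Fibroblast cells, 0 to 9 in Epithelial cells, 0 to 3 in NK cells and 0 to 1 in macrophages, Osteoclasts and T cells. They ranged from 0 to 7 for the difference between Fibroblast and malignant cells and from 0 to 1 for that between Epithelial and malignant cells. In the fits with the most members called, limma called 462, 249, 142, 132, 5 and 198 of all genes in Fibroblast, Epithelial, NK, macrophage, Osteoclast and T cells and 323 for the Fibroblast difference, so calls were not limited to members. In malignant, Microglia and all non-malignant cells they stayed at 0. DESeq2 called 3 members in malignant cells. No other alternative called a member in any population. The cause of the changes was not tested, beyond the smaller number of mice. In the fits without vehicle replicate 1, treatment cannot be told apart from the host difference in sex-linked genes.

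The number of members lower in both digoxin malignant samples was 21 and ranged from 22 to 34 without single mice, and the number higher was 1 and ranged from 1 to 8, or 0 on summed UMIs and 0 without cells over 25% mitochondrial UMIs. Fewer mice can only keep or raise such counts, so these ranges are no check: over all genes the shares rose from 16.5% lower and 12.8% higher to 24.6% to 39.8% and 24.4% to 36.6%. These 2 counts and the fits without cells with a Lum UMI were chosen after seeing the data. The summed level of the 49 genes differed by -0.11 on the log2 scale in Epithelial cells, by -0.015 on summed UMIs, by -0.036 with TMM scaling, by -0.033 with DESeq2 size factors and by -0.028 without cells with mast cell markers. In malignant and in Epithelial cells it was lower with digoxin in every alternative run. Without single mice it ranged from -0.14 to 0.04 in Fibroblast cells, -0.10 to 0.17 in macrophages and -0.48 to 0.19 in all non-malignant cells.

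Signs changed for some members under alternatives. In Epithelial cells Col4a1 became 0.069 on summed UMIs, 0.048 with TMM, 0.048 with edgeR, 0.051 with DESeq2, 0.000726 without Ptprc cells and 0.051 without mast cell markers. Col4a2 became 0.022 on summed UMIs, 0.00107 with TMM and 0.030 without mast cell markers. Col18a1 became -0.000429 without cells over 25% mitochondrial UMIs, and Hspg2 became 0.012 without mast cell markers. Sparc in Fibroblast cells became 0.011 on summed UMIs, 0.064 with TMM, 0.077 with edgeR and 0.081 with DESeq2. Without single mice the range in Epithelial cells was -0.082 to 0.011 for Col4a1, -0.13 to 0.017 for Col4a2, -0.095 to 0.63 for Col15a1, -0.095 to 0.10 for Col18a1, -0.24 to 0.089 for Hspg2 and -0.36 to 0.051 for Serpinh1. In Fibroblast cells it was -0.017 to 0.41 for Col1a1, -0.13 to 0.26 for Col1a2, -0.086 to 0.17 for Col3a1, -0.15 to 0.14 for Sparc, -0.75 to 0.20 for Dcn and -0.53 to 0.017 for Bgn.

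The replicate labels share numbers, but the labels tie no pair of mice. Deviations of same-numbered mice correlated at -0.36 in malignant cells and -0.15 to 0.06 elsewhere. With a replicate block limma called 0 members in every population. With 2 mice per group and under 100 Fibroblast cells per mouse, differences within the intervals given could not be detected.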

Other observations

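The types with too few cells for a test also held matrix RNA. Cells named Neutrophil, 5 to 34 per mouse, had 1684, 1455, 1030 and 681 CPM of Fn1 in vehicle replicates 1 and 2 and digoxin replicates 1 and 2, a level close to that of macrophages. Their macrophage markers summed to 12364 to 17631 CPM, beside 6881 to 121043 CPM of 4 neutrophil markers. The 30 cells named Unknown, all of vehicle replicate 2, had 488 CPM of Col18a1 and 343 of Serpinh1, with 12.7 of Col1a1 and 211 of Col1a2. In that group Col1a1 was far below Col1a2, where the ratio of their UMIs was 0.852 to 0.996 in malignant cells and 1.02 to 1.16 in Fibroblast cells.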
